A study of Homo sapiens with 9 samples.

Results

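The transglutaminases TGM1 and TGM2 and the peptidylarginine deiminases PADI1, PADI2, PADI3 and PADI4 were followed across parental and reprogramming factor-transduced A549 cells. These 6 genes, of 21743 gene names on the array, were read by every non-control probe annotated to one of their RefSeq transcripts, which gave 8 probes of 50599. The set was selected on measured values, since PADI3 and TGM2 had the largest falls when OSK-A549-Colony was set against OSK-A549-SN. Those falls were ranked among the probes called in OSK-A549-Colony against parental A549, so the PADI3 and TGM2 values in both comparisons are given as a description and without a test. The difference of OSK-A549-SN from parental A549 follows by subtraction from the other two and is given for these genes in the same way. The ranking started from 1087 probes called in OSK-A549-Colony against parental A549 and tested in both comparisons. It kept named probes only, at an adjusted p under 0.05 within those 1087 and a fall over 2-fold. Their groups also had to be without overlap, with every OSK-A549-SN array well above background. Probes that missed any of these conditions were not ranked. Among those kept, PADI3 (log2 fold change -1.53) and TGM2 (-1.42) stood first and second, and the next, outside the chosen genes, was DPYSL5 at -1.40.

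A549 is a human lung adenocarcinoma line. The parental A549 group was untransduced. Both transduced groups carried retroviral OCT3/4, SOX2 and KLF4 (OSK) and were at a later passage than every parental sample, so passage and transduction cannot be told apart. OSK-A549-SN cells were the spindle-shaped cells that trypsin released first from around the dome-shaped colonies, and OSK-A549-Colony cells were those that stayed on the dish and were picked, so both are fractions separated by detachment and not clones. Each group had 3 arrays, with RNA from independent transduction experiments, and the small number of arrays sets the precision of all values below.

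Transglutaminases are calcium-dependent enzymes that join a glutamine of one protein to a lysine of another. TGM1 builds the cornified envelope of stratified epithelia. TGM2 is the widely expressed tissue transglutaminase, which also binds GTP and acts outside the cell on fibronectin and integrins, and it is a classic retinoid-responsive gene. Peptidylarginine deiminases convert arginine residues of proteins to citrulline, again with calcium. PADI1 and PADI3 are best known from epidermis and hair follicle, where filaggrin and trichohyalin are substrates, PADI2 is expressed in many tissues and PADI4 in granulocytes, where it citrullinates histones. The arrays measured RNA only, so neither enzyme activity nor citrullination is covered.

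Between 25808 and 29315 probes per array were detected. All 6 epithelial marker genes (KRT7, KRT8, KRT18, KRT19, EPCAM and CDH1) were detected on all arrays of every group, and 6 of 7 fibroblast markers were detected on none. Among the epithelial markers, CDH1 differed from parental A549 by -0.996 in OSK-A549-Colony on the log2 scale (limma adjusted p = 0.0318) and by -0.83 in OSK-A549-SN (adjusted p = 0.0860). KRT19 was 1.18 above parental A549 in the Colony cells (adjusted p = 0.0625) and 1.22 above the SN cells (adjusted p = 0.134). Of the 6 keratinocyte or squamous markers, 1 was detected on all arrays of parental A549, 2 of OSK-A549-Colony and 3 of OSK-A549-SN. Their summed intensity ranged from 985 to 1457, from 998 to 2915 and from 639.6 to 1620 in the same order. KRT5 and DSG3 were detected nowhere, whereas KRT6A was at 3.15 to 8.04 on the parental arrays, 27.5 to 2118 in OSK-A549-Colony and 57.0 to 1201 among the OSK-A549-SN arrays. KRT6A was thus brighter on every transduced array, although it did not pass limma's adjusted p in either comparison with parental A549 (0.0804 and 0.0665). KRT4, detected on all 9 arrays, went the other way, at 967 to 1432 on the parental arrays, 770.4 to 1242 in OSK-A549-Colony and 393 to 554 among the OSK-A549-SN arrays. The part of these marker differences in the results below was not tested. In these bulk samples, fewer cells of a type and less RNA per cell cannot be told apart. Of the 9 arrays, OSK-A549-SN replicate 3 alone was on a slide of its own, so its slide and the array itself cannot be told apart.

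PADI3 was at background in parental cells and highest in the spindle-shaped cells. Its single probe (A_23_P126869, NM_016233) gave intensities of 8.17, 11.0 and 9.30 on the parental arrays, 29.6, 25.7 and 19.8 in OSK-A549-Colony, and 50.5, 61.5 and 112 for OSK-A549-SN. The 3 groups did not overlap, and no parental array was well above background while all 6 transduced arrays were. OSK-A549-Colony was at least 1.87-fold above parental A549 and 2.88-fold below OSK-A549-SN, both being the comparisons behind the choice of this gene. A bound written "at least" sets each array of the dimmer group to the lowest level that counts as measured on it, or to its own value where that is higher. OSK-A549-SN was at least 5.40-fold above parental A549, and the fitted log2 fold change was 2.91 (SE 0.27). It was 2.67 without OSK-A549-SN replicate 3, the brightest array, and 2.77 to 3.13 without any other of the 6 arrays. With normexp background correction, which adds an offset that compresses dim signals, it was 0.83. The log2 values of OSK-A549-Colony then became 0.24 against parental A549 and -0.59 against OSK-A549-SN.

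**Figure D1:**
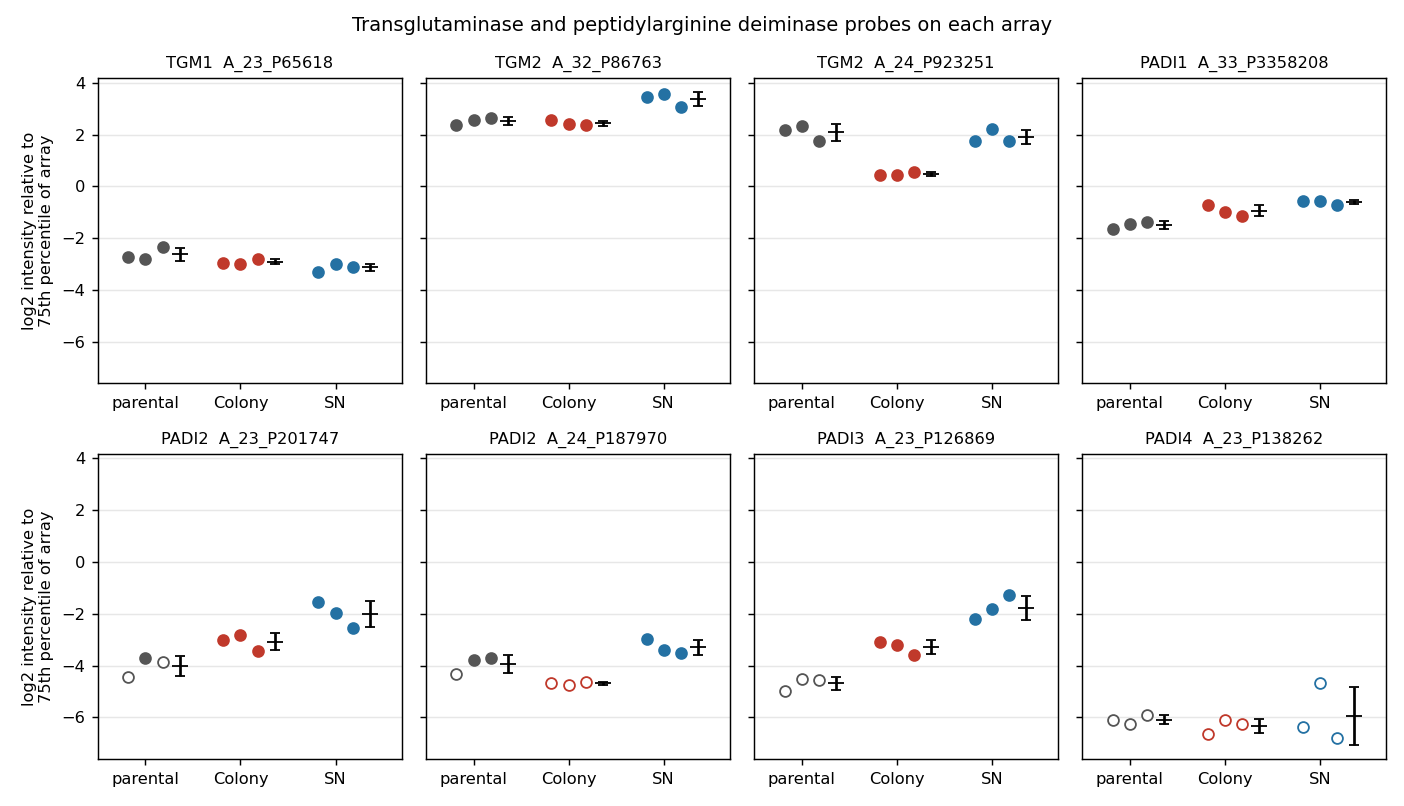
Log2 intensity of the 8 probes relative to the 75th percentile of the array (vertical axis) on the 9 arrays, by group. Each circle is 1 array, filled where the probe was well above background, and the black bar is the mean ± SD of 3 arrays. PADI3 was open (not well above background) on the 3 parental arrays and filled on the other 6, and the A_24_P923251 probe of TGM2 was lowest in OSK-A549-Colony.

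PADI2, the most widely expressed family member, has a pair of probes on the array, both annotated to NM_007365. The A_23_P201747 probe gave 11.7, 19.3 and 15.0 on the parental arrays, 31.4, 33.5 and 22.1 in OSK-A549-Colony and 79.4, 55.8 and 46.5 for OSK-A549-SN. Of the parental arrays 1 was well above background, as were all 6 transduced arrays, and the groups followed the order of PADI3 without overlap. In OSK-A549-SN it rose against parental A549 by 1.99 on the log2 scale (SE 0.32, limma adjusted p = 0.0479), a size that is not exact because 2 of the 3 parental arrays were at background. The adjusted p passed the threshold narrowly. It was 0.160, 0.184 and 0.0611 without OSK-A549-SN replicates 1, 2 and 3 and 0.0826, 0.145 and 0.0831 without parental A549 replicates 1, 2 and 3, with log2 fold changes of 1.76 to 2.25. The differences of OSK-A549-Colony from parental A549 (0.92, SE 0.26, adjusted p = 0.0817) and from OSK-A549-SN (-1.07, SE 0.30, adjusted p = 0.170) did not pass. With normexp background correction the OSK-A549-SN difference from parental A549 was 0.63 (adjusted p = 0.0563).

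The A_24_P187970 probe of PADI2 read 12.6, 18.4 and 16.8 in parental A549, of which 2 arrays were well above background. It read 9.79, 8.71 and 9.75 in OSK-A549-Colony, none well above background, and 29.2, 20.8 and 23.7 in OSK-A549-SN, all well above it. OSK-A549-SN was at least 2.12-fold above OSK-A549-Colony, and the log2 difference of -1.39 (SE 0.16) did not pass limma's adjusted p over all probes (0.0958). Against parental A549, OSK-A549-Colony was at least 1.35-fold lower (adjusted p = 0.0680), and the log2 difference of OSK-A549-SN was 0.64 (SE 0.24, adjusted p = 0.200). Neither passed.

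PADI1 was well above background on all 9 arrays. Its probe (A_33_P3358208, NM_013358) gave 80.3, 92.1 and 83.8 on the parental arrays, 152, 119 and 111 in OSK-A549-Colony and 155, 148 and 166 for OSK-A549-SN. Once scaled to each array's 75th percentile, the 3 groups did not overlap and stood in the same order as those of PADI3. The log2 fold change of OSK-A549-SN against parental A549 was 0.89 (SE 0.14, limma adjusted p = 0.0462), which passed the adjusted p but stayed under the 2-fold threshold at 1.85-fold. That adjusted p lay between 0.0626 and 0.189 when any 1 of the 6 arrays was left out, with log2 fold changes of 0.80 to 0.95. The OSK-A549-Colony values were 0.56 against parental A549 (SE 0.15, adjusted p = 0.0743) and -0.33 against OSK-A549-SN (SE 0.13, adjusted p = 0.251), and neither passed.

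PADI4, the deiminase of granulocytes, stayed at background on all 9 arrays and was not tested. Its probe (A_23_P138262, NM_012387) read 2.45 to 8.56 over the 9 arrays, and the highest of these values was OSK-A549-SN replicate 2. Of 7 measured myeloid markers, 5 were detected on all arrays of every group, among them CSF3R, the granulocyte colony-stimulating factor receptor. Of the granule genes, ELANE was detected on 2 parental, 1 Colony and 1 SN array, and MPO on none. CD68, a macrophage marker of the same list, was above parental A549 by 1.04 in OSK-A549-Colony (limma adjusted p = 0.0272) and by 1.03 in OSK-A549-SN (adjusted p = 0.0577). The list went both ways. In OSK-A549-Colony, ITGAM was also above parental A549 (0.81, adjusted p = 0.0300), whereas PTPRC (-0.57), CD14 (-0.74), CSF3R (-0.18) and ELANE (-0.96) were below it. In OSK-A549-SN, ITGAM (0.26) and CSF3R (0.47) were above it, and PTPRC (-0.01), CD14 (-0.17) and ELANE (-0.93) below.

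PADI2, PADI1, PADI3 and PADI4 lie next to each other in this order on human chromosome 1, followed by PADI6, the oocyte member of the family, which was not detected on any array. Against parental A549, the A_23_P201747 probe of PADI2 was called in the spindle-shaped cells, and PADI3 (2.91) is a description, since its values lie behind the choice. PADI1 stayed under 2-fold (0.89), and the A_24_P187970 probe of PADI2 (0.64) did not pass. SDHB, a subunit of succinate dehydrogenase, differed by 0.03 between OSK-A549-SN and parental A549 on the log2 scale, and ATP13A2, a lysosomal ATPase, by 0.17. On the other side, RCC2, a mitotic regulator, differed by 0.16 and ARHGEF10L by -0.30, and limma's adjusted p for these 4 genes ranged upward from 0.493. MFAP2 was not detected. The third gene on that side, ACTL8, an actin-like gene, rose by 1.35 in OSK-A549-Colony (SE 0.24, adjusted p = 0.0345) and by 2.08 in OSK-A549-SN (SE 0.24, adjusted p = 0.0307) against parental A549. Both calls were lost with the replicate number as a block.

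Promoter sequences from RefSeq (GRCh38.p14) were at hand for 3 of the 6 genes, and they are shown as those of members of the chromosome 1 cluster described above. Each runs 5′ to 3′ on the gene's own strand from 250 bases before the transcript start to 50 bases after it. PADI2 is at chr1:17119402-17119701 on the minus strand, PADI1 at chr1:17204878-17205177 on the plus strand and PADI4 at chr1:17307947-17308246 on the plus strand. Capitals mark matches on either strand to any of 6 short motifs. These were the GC box GGGCGG, the KLF-type box CACCC, the TATA box TATAAA, the AP-1 site TGANTCA, the octamer ATGCAAAT and the SOX motif ATTGTT.
PADI2: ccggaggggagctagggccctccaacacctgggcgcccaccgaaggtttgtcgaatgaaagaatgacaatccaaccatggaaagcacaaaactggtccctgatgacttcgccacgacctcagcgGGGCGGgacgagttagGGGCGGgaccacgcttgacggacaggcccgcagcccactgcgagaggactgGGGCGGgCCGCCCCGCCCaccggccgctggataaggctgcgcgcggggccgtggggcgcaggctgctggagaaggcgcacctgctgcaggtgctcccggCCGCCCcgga
PADI1: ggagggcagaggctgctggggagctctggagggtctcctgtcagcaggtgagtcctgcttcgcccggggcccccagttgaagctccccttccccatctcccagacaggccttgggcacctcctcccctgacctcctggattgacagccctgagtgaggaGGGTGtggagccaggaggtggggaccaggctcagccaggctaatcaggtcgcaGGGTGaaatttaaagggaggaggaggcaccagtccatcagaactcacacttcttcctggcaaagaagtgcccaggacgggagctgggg
PADI4: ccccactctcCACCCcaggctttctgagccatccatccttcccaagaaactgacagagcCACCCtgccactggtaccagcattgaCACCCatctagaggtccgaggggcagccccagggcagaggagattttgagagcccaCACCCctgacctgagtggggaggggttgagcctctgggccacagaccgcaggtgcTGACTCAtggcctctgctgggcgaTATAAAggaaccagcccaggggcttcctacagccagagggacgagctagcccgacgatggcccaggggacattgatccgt
PADI2 held 6 GC boxes, of which a neighbouring pair shares 1 base, in a window of 69.0% G and C. A GC box was in 45.0% of the 35116 promoters of this length. PADI1 held 2 CACCC boxes and no GC box, and PADI4 held 4 CACCC boxes, a motif in 59.9% of all promoters. PADI4 also held 1 TATAAA (in 11.5% of all promoters) and 1 TGANTCA (in 7.71%). None of these 3 windows held the octamer (in 1.77% of all promoters) or the SOX motif (in 10.1%). A match describes letters and not a bound site.

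TGM2 was bright in every group, and its 2 probes placed OSK-A549-Colony differently. The A_24_P923251 probe (NM_198951, the transcript for a shorter protein) gave 1149, 1275 and 724 on the parental arrays, 341, 317 and 355 in OSK-A549-Colony and 777, 1011 and 904 for OSK-A549-SN. OSK-A549-Colony was below both other groups on every array, 3.04-fold under parental A549 and 2.68-fold under OSK-A549-SN, and parental A549 and OSK-A549-SN overlapped. These 2 falls chose the gene and carry no test. OSK-A549-SN differed from parental A549 by -0.18 on the log2 scale (SE 0.23).

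The A_32_P86763 probe of TGM2 (NM_004613, the transcript for the full-length protein) gave 1315, 1501 and 1368 on the parental arrays, 1463, 1255 and 1241 in OSK-A549-Colony and 2520, 2607 and 2260 for OSK-A549-SN. Here OSK-A549-Colony overlapped with parental A549 (log2 difference -0.09, SE 0.12), and OSK-A549-SN was above all other arrays. OSK-A549-SN exceeded OSK-A549-Colony 1.89-fold, and its log2 difference from parental A549 was 0.83 (SE 0.18). Both probes therefore had OSK-A549-Colony below OSK-A549-SN. They parted in whether parental A549 was level with OSK-A549-SN or with OSK-A549-Colony. Whether either probe reads 1 transcript alone is not known from the annotation.

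The unequal change of the probes of 1 gene was put as a difference within each array, which removes the array's scale. This comparison was made after the values were seen. For TGM2, the log2 difference of A_24_P923251 from A_32_P86763 averaged -0.45 ± 0.41 on the parental arrays, -1.96 ± 0.15 in OSK-A549-Colony and -1.46 ± 0.21 for OSK-A549-SN (SD, n = 3 each). No pair of groups overlapped. As one of these probes lay behind the choice, the values are a description. For PADI2, the difference of A_24_P187970 from A_23_P201747 averaged 0.07 ± 0.12, -1.60 ± 0.39 and -1.28 ± 0.26 in the same order. Both transduced groups were apart from parental A549 and overlapped with each other. On the Colony arrays A_24_P187970 was at background throughout, and on 2 of 3 parental arrays A_23_P201747 was, so the sizes of these differences are not exact. The 3 TGM2 differences between groups stayed in the same direction under normexp and quantile normalisation. Those of PADI2 against parental A549 shrank under normexp from -1.67 to -0.31 for OSK-A549-Colony and from -1.35 to -0.46 for OSK-A549-SN.

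**Figure D2:**
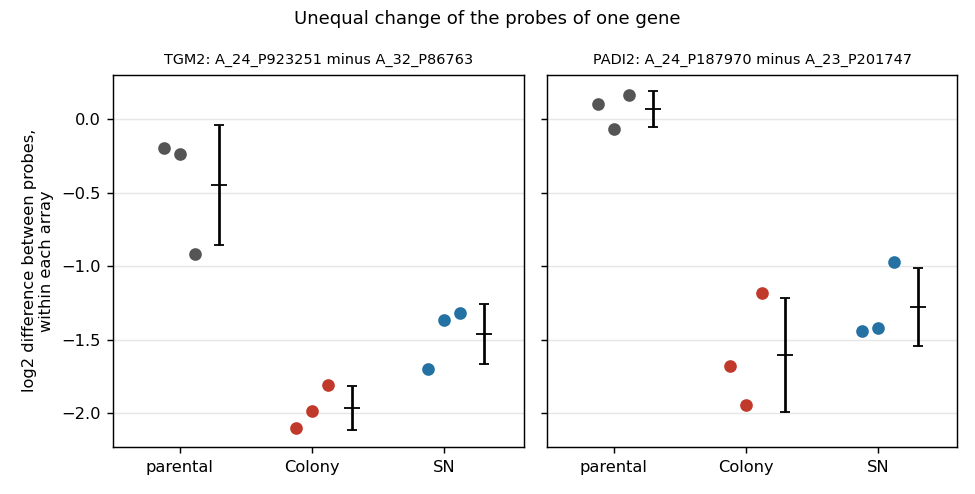
Log2 difference between the 2 probes of TGM2 (left) and of PADI2 (right) within each array (vertical axis), by group. Circles are arrays and black bars the mean ± SD of 3 arrays. In both genes the transduced groups lie below parental A549, and in TGM2 OSK-A549-Colony is lowest.

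On chromosome 20, KIAA1755, the measured gene next to TGM2 on one side, moved in the transduced cells. It was well above background on 3 parental arrays and on no transduced array, so it was tested through the parental arrays alone, and it was at least 5.59-fold lower in OSK-A549-Colony (limma adjusted p = 0.0243) and at least 6.01-fold lower in OSK-A549-SN (adjusted p = 0.0451). RPRD1B, on the other side of TGM2, differed by 0.28 and 0.06 from parental A549 on the log2 scale and did not pass. Beyond it, VSTM2L fell by 1.73 in OSK-A549-SN (SE 0.28, adjusted p = 0.0496), and the value in OSK-A549-Colony was -0.95 (SE 0.34, adjusted p = 0.133). The calls of KIAA1755 and VSTM2L were lost with the replicate number as a block. CTNNBL1 differed by -0.07 and -0.04, and BPI and LBP were not detected.

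TGM1, the transglutaminase of the cornified envelope, was dim but well above background throughout. Its probe (A_23_P65618, NM_000359) gave 38.9, 35.7 and 42.5 on the parental arrays, 32.3, 29.6 and 34.5 in OSK-A549-Colony and 23.6, 27.3 and 31.2 for OSK-A549-SN. Its order, highest in parental A549 and lowest in OSK-A549-SN, was the reverse of that of PADI1 and PADI3, but OSK-A549-Colony overlapped with parental A549 and no difference passed. The log2 differences were -0.29 for OSK-A549-Colony against parental A549 (SE 0.15, limma adjusted p = 0.271), 0.22 for the Colony against the SN cells (SE 0.11, adjusted p = 0.341) and -0.50 for the SN against the parental cells (SE 0.18, adjusted p = 0.181). None of the 6 measured genes nearest to TGM1 on chromosome 14 (NEDD8, GMPR2, TINF2, RABGGTA, NOP9 and DHRS1) was called in any comparison.

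Counted over the 8 probes, 7 were tested in each comparison. A probe was called at an adjusted p under 0.05 and a fold over 2. Between the Colony and SN cells limma called none of the 7, and it called 0% of all 31746 probes tested. At an unadjusted p under 0.05 with the same fold, 4 of the 7 passed, all lower in the Colony cells, against 2.09% of all probes in either direction and 1.29% lower. Of these, PADI3 and the A_24_P923251 probe of TGM2 were ranked first by the rule that chose them, so their part in the count is fixed and is no test. The other two were the PADI2 probes, of which A_24_P187970 entered the comparison through its OSK-A549-SN arrays alone. All 7 had groups that did not overlap, 6 of them lower in OSK-A549-Colony, against 30.8% of all probes not overlapping and 17.3% lower without overlap. PADI3 and both TGM2 probes, 3 of those 6, belong to the genes chosen on this comparison, so nothing is read from these counts. TGM1 was the exception to that direction, by a margin of under 0.01 between its nearest scaled arrays. In OSK-A549-Colony against parental A549, 2 of 7 were called, against 3.7% of all 30864 probes. They were PADI3 and the A_24_P923251 probe of TGM2, for which a call here was a condition of the choice. There 5 of 7 did not overlap, against 41.6% of all probes. Both chosen probes are also among these 5, so nothing is read from either count. In OSK-A549-SN against parental A549, 2 of 7 were called, PADI3 and the A_23_P201747 probe of PADI2, both higher, against 1.55% of all 32218 probes and 0.705% called higher. There 6 of 7 did not overlap, 5 of them higher in OSK-A549-SN, against 32.1% of all probes in either direction and 16.8% higher. PADI3 and the A_32_P86763 probe of TGM2, 2 of those 5, belong to the chosen genes, so nothing is read from these counts either. With the replicate number as a block, 0 probes of the whole array were called in either comparison with parental A549. The same held without OSK-A549-Colony replicate 2 for those cells, and without OSK-A549-SN replicate 1 or replicate 2 for the SN cells, so every call against parental A549 given here, neighbouring genes and lists included, was lost in those fits. The median log2 fold change of all probes was -0.06, -0.03 and 0.08 in the 3 comparisons in this order.

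**Figure D3:**
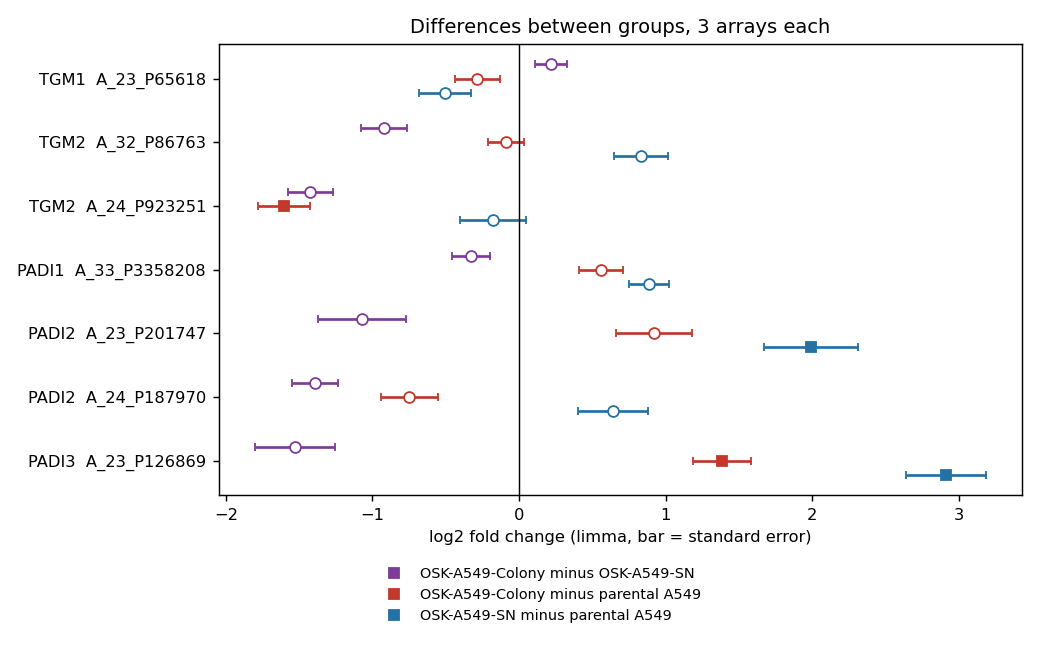
Log2 fold change (horizontal axis) of the 7 tested probes in the 3 comparisons, with limma's standard error as the bar. Filled squares were called at an adjusted p under 0.05 and a fold over 2, and open circles were not. PADI3, whose values lie behind the choice, has the largest value of these probes for OSK-A549-SN against parental A549 (2.91), and no value of the Colony against the SN cells is filled.

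Counts of calls in the following lists stand beside 0%, 3.7% and 1.55% of all probes called in Colony against SN, Colony against parental and SN against parental cells. Other genes of these families were mostly not detected. Of 9 other transglutaminase and deiminase genes with a probe, 2 to 3 were detected and tested in a comparison. TGM6 was detected on all arrays and differed by -0.36, -0.18 and 0.18 in Colony against SN, Colony against parental and SN against parental cells. The 1 call among these genes was F13A1, the coagulation factor XIII A chain, in OSK-A549-Colony against parental A549 (at least 1.15-fold higher, limma adjusted p = 0.0412). It was well above background on only 1 of the 3 OSK-A549-Colony arrays and on no parental array.

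Among 29 cornified envelope and hair follicle genes, the substrates and companions of TGM1 and the deiminases, 17 to 19 were tested. None was called between the Colony and SN cells (0 also at an unadjusted p under 0.05 with the fold), where the median log2 fold change was -0.27. The deiminase substrate TCHH (trichohyalin) differed by 0.96 (limma adjusted p = 0.105). FLG (filaggrin), not detected on any OSK-A549-Colony array, was at least 1.25-fold lower there (adjusted p = 0.132). Against parental A549, PI3 (elafin, a protease inhibitor cross-linked by transglutaminase) rose by 1.50 in OSK-A549-Colony (SE 0.27, adjusted p = 0.0353), the 1 call of 18. In OSK-A549-SN 2 of 19 rose, the small proline-rich protein SPRR3, at least 2.58-fold (adjusted p = 0.0320) and tested through its OSK-A549-SN arrays alone, and S100A3, a substrate of PADI3 in hair, by 1.22 (SE 0.20, adjusted p = 0.0484). The medians against parental A549 were 0.01 and 0.19.

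Of 22 extracellular and surface partners of TGM2, 19 were tested. None was called between the Colony and SN cells. At an unadjusted p under 0.05 with the fold 3 passed, against 2.09% of all probes. They were ITGB3 (integrin beta 3, 1.60, limma adjusted p = 0.106), FN1 (fibronectin, 1.02, adjusted p = 0.217) and LTBP2 (an elastic fibre protein, -1.74, adjusted p = 0.221), the last well above background on 1 of 3 OSK-A549-Colony and 2 of 3 OSK-A549-SN arrays. Against parental A549, 4 were called in OSK-A549-Colony, 2 of them higher. ITGB3, not detected in parental A549 and tested through its OSK-A549-Colony arrays alone, was at least 2.91-fold higher (adjusted p = 0.0126). COL4A1, a basement membrane collagen, rose by 1.07 (SE 0.17, adjusted p = 0.0300), and PLCD1, a phospholipase coupled to the GTP-bound form of TGM2, fell by 1.13 (SE 0.23, adjusted p = 0.0449). In OSK-A549-SN 2 were called, both higher, of which COL4A1 rose by 1.01 (SE 0.16, adjusted p = 0.0479). The other was ITGB3, well above background on 2 of 3 arrays there and on no parental array (adjusted p = 0.0368), for which the bound gives no fold above 1.

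Of 24 retinoid receptors, enzymes and responsive genes, listed because TGM2 is retinoid-responsive, 20 were tested. None was called between the Colony and SN cells (0 also at an unadjusted p under 0.05 with the fold), and the largest differences were in CRABP1 (0.69) and RDH10 (0.62). Against parental A549, DHRS9, a retinol dehydrogenase, rose by 2.39 in OSK-A549-Colony (SE 0.38, limma adjusted p = 0.0304) and by 1.87 in OSK-A549-SN (SE 0.21, adjusted p = 0.0307). CRABP1, a carrier of retinoic acid, fell by 1.24 (SE 0.16, adjusted p = 0.0231) in OSK-A549-Colony and fell by 1.93 in OSK-A549-SN (SE 0.15, adjusted p = 0.0206). ALDH1A3, which makes retinoic acid, rose by 1.10 in OSK-A549-Colony (SE 0.23, adjusted p = 0.0446). These were 3 calls and 2 calls of 20, with medians of 0.08 and 0.28.

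**Figure D4:**
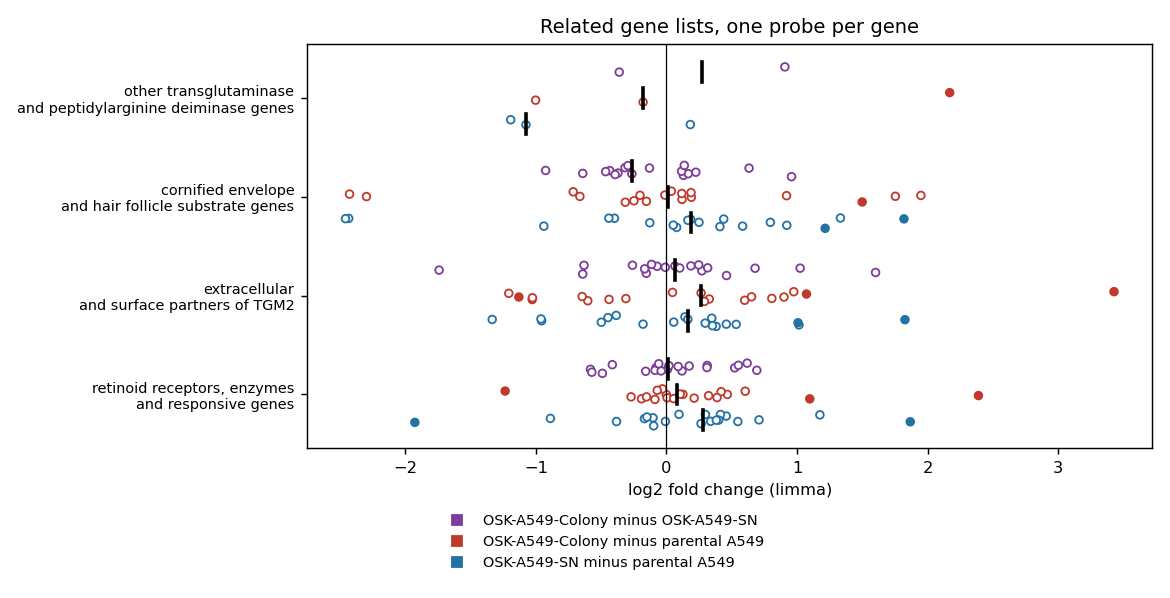
Log2 fold change (horizontal axis) of the tested genes of 4 related lists in the 3 comparisons, 1 probe per gene, with a small vertical jitter. Filled circles were called, open circles were not, and the black tick is the median of the list. No gene of the lists was called between the Colony and SN cells, and the called genes against parental A549 lie on both sides of 0.

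Patterns over the 9 arrays were compared among 1721 named probes detected on all arrays of at least 1 group. The group means of these probes spanned at least 1 on the log2 scale. The genes whose levels followed PADI3 most closely were APOL1 (Pearson r = 0.966), MS4A7 (r = 0.955), KIAA1549L (r = 0.943), APOL4 (r = 0.932) and AOX1 (r = 0.932). All 5 had the group order of PADI3, which picking them by r favours. APOL1, an apolipoprotein of innate immunity, was at a mean scaled log2 level of 2.57 in OSK-A549-SN, against 1.95 in OSK-A549-Colony and 1.56 in the parental cells. For the A_32_P86763 probe of TGM2 the closest were the antisense transcript HOTAIR (r = 0.954) and the small nucleolar RNAs SNORD114-15 (r = 0.925), SNORD114-21 (r = 0.906), SNORD114-20 (r = 0.906) and SNORD114-28 (r = 0.869). HOTAIR and SNORD114-20 were well above background in OSK-A549-SN alone. MS4A7 (0 parental and 2 Colony arrays), SNORD114-15 (1 and 1) and SNORD114-28 (0 and 1) were well above it on all arrays of OSK-A549-SN only. These 5 genes were thus candidates through OSK-A549-SN alone, and part of their r rests on values at background. The 9 points share 3 groups and the scaling of each array, so these r values describe the shape of the group means and carry no p.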

How the data were processed

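RNA of 3 parental A549, 3 OSK-A549-Colony and 3 OSK-A549-SN samples was hybridised singly to one-colour Agilent arrays. The authors deposited the scanner output, in which the processed intensity of each spot is background-subtracted by Agilent Feature Extraction 11.5.1.1 and not scaled between arrays. A log2 table by the authors equals the values used here, for 100% of probes, up to 1 constant per array (within 0.001). The study's own analysis used GeneSpring GX.

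Control spots (4259 of 62976) and outlier-flagged spots (357 to 484 per array) were left out, no spot was saturated, spots of a probe were averaged, and log2 intensity minus the array's 75th percentile (217.5 to 270.6) was used. A probe was detected where no less than 0.5 of its spots (as a share) were positive, significant and well above background. Symbols came from RefSeq accessions (30275 of 32065 probes with an accession were named). Each comparison was fitted with limma 3.58.1 in R 4.3.3 on its own 6 arrays, over probes detected on at least 1 of them, with Benjamini-Hochberg adjustment over all of these. The fit was tested on simulated data.

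The genes and gene lists were chosen with earlier results of these data known. Within the lists, each gene was read by its brightest probe over the arrays of the comparison, so the probe of a gene can differ between comparisons. The genes named were those called (at most 3 per list and comparison, by size) and measured on all arrays of the brighter group, or the 2 largest where none was called, the 3 nearest genes with a named probe on each side, and the 5 most alike in pattern. F13A1, LTBP2 and ITGB3 in OSK-A549-SN are named outside this rule, after their values were seen. Alternatives were normexp background correction (offset 50, on median spot brightness, since no mean signal was in the files used here), quantile normalisation, no and stricter detection filters, slide and replicate blocks, all 9 arrays in 1 fit, no fold threshold, the log2 table of the authors, and leave-one-out fits.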

Additional observations from a re-analysis of the deposited data

How the results depend on the processing

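Of the 7 tested probes, none changed the sign of its log2 fold change under any alternative in any comparison, but the counts of calls depended on the setting, and the cause was not tested. For the probes of the 6 genes, the 0 calls in OSK-A549-Colony against OSK-A549-SN became 1 with normexp (the A_24_P923251 probe of TGM2) and 3 with the stricter detection filter (that probe, PADI3 and the A_24_P187970 probe of PADI2), against 32 of 31746 and 139 of 26355 probes of the whole array. TGM2 and PADI3 were chosen on this comparison, and PADI2 passed that filter through its OSK-A549-SN arrays alone, so these calls are no support. The 2 calls against parental A549 in OSK-A549-Colony became 1 with normexp. The 2 in OSK-A549-SN became 0 with normexp and 1 with quantile normalisation, with no detection filter and with the slide as a block. Leaving out 1 array gave 0 to 2 calls in OSK-A549-Colony and 0 to 1 in OSK-A549-SN against parental A549. The 0 came without any one OSK-A549-Colony array or parental A549 replicate 2 in the former, and without any array but OSK-A549-SN replicate 3 in the latter. Over the whole array the calls were then 0 when OSK-A549-Colony replicate 2 was left out and 1 when parental A549 replicate 2 was in the former, and 0 without OSK-A549-SN replicate 1 or 2 and 2 without parental A549 replicate 2 in the latter. Other probes were still called in the remaining fits. In the former, 141 and 85 were called without OSK-A549-Colony replicates 1 and 3. In the latter, 44 and 158 were called without parental A549 replicates 1 and 3. For the related lists together, the 0 calls between the Colony and SN cells became 1 with the stricter filter. The 9 calls in OSK-A549-Colony against parental A549 became 3 with normexp, 2 with no filter and 0 to 7 without 1 array. The 6 in OSK-A549-SN became 3 with normexp, 2 with the slide as a block and 0 to 2 without 1 array. The difference between the PADI2 probes in OSK-A549-Colony minus OSK-A549-SN turned from -0.32 to 0.15 with normexp. The slide block was not run for OSK-A549-Colony against parental A549, whose arrays share 1 slide.

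Same-numbered arrays of OSK-A549-Colony and OSK-A549-SN correlated at 0.06, 0.02 and 0.06 in their deviations from the group means, under 0.1. Each of these 6 arrays correlated best with its own number. The labels give the same passage within each same-numbered pair, and SN cells were collected from dishes of colonies, but the labels do not say that a number marks a shared dish or experiment. The fit without the block was therefore kept, and whether the numbers pair the samples is not known. With the replicate block, both counts of probes called against parental A549 became 0, as did both counts for the lists, and 0 of 30864 and 0 of 32218 probes of the whole array were called. Same-numbered arrays correlated with parental A549 at -0.03, -0.01 and -0.02 for OSK-A549-Colony and at 0.02, -0.05 and -0.03 for OSK-A549-SN. The block also uses up residual degrees of freedom, and the part of this in the lost calls was not tested. Probes at background on some arrays (PADI2, PADI3) have no exact level there.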
